A study of Mus musculus with 1600 samples.

Results

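The 30 genes described here act in G2 and mitosis, the last phases of the cell cycle, and were taken by symbol from the count table as a named set of cell division genes, 30 of its 22092 symbols. All 30 were present and had counts at each of the 3 stages. They were read in single cells of the hind limb of C57BL/6 mouse embryos carrying an Scx-GFP transgene, at the embryonic stages E10.5, E12.5 or E15.5, named by the day of gestation. The transgene, carried by every group, reports scleraxis (Scx), which marks progenitors of tendon. No sort for GFP is given in the labels, so whether cells were sorted is not known, and they are not taken here as the Scx lineage. Limbs of siblings from 1 litter were combined at each stage, digested with collagenase and trypsin and loaded on the Fluidigm C1, a chip that captures cells in separate chambers. Labels assign 120, 160 and 200 cells to these stages, of which 119, 158 and 200 had at least 1000 detected genes and were kept. Here and throughout, 3 values in a row without a stage follow the order of the stages. Each stage was therefore 1 sample and no difference between stages has a replicate check or a test. Libraries had been made in 12 pools of 40 cells, 3 at E10.5 (pools 1 to 3), 4 at E12.5 (pools 4 to 7) and 5 at E15.5 (pools 8 to 12). The pools are a technical split of 1 sample per stage, and their spread is given in place of replicate error.

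Cells entering mitosis accumulate cyclins A and B, which bind the kinase Cdk1 and drive chromosome condensation, breakdown of the nuclear envelope and assembly of the spindle. Kinases of the Aurora and Polo families and the spindle checkpoint oversee the attachment of chromosomes, and the anaphase promoting complex then marks cyclin B and other proteins for destruction so that chromatids part and the cell divides. Most of these genes are transcribed late in the cycle, from G2 into mitosis, and are silent in resting cells, which is why their messenger RNA is used to recognise dividing cells. In the limb bud, mesenchymal cells divide while the bud grows out, and cells leave the cycle as cartilage, muscle and tendon mature.

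Summed counts of the stages were 33742559, 46009284 and 46035725, and the median cell had 272198, 250709 and 192228 counts. The depth fell with stage in these medians, so every share of cells given here was computed after each cell was thinned at random to 50000 counts, which left 115, 149 and 185 cells. At that depth the median cell had 3538, 3517 and 3528 detected genes. Hind limb cells are marked by Pitx1 and Tbx4, and forelimb cells by Tbx5. The cells labelled E10.5 had 0 counts of Pitx1 and 67.9 counts per 1000000 (CPM) of Tbx5, against 169 CPM of Pitx1 and 0.739 CPM of Tbx5 at E12.5 and 68.7 and 6.32 CPM at E15.5. Tbx4 had 5.63, 79.05 and 42.6 CPM in the same order. The E10.5 cells thus went against their hind limb label in these markers, and limb type and stage cannot be told apart in any comparison with E10.5 below. The 17 muscle markers summed to between 12.8 and 94.9 CPM over the E10.5 pools (8 at 0, Myod1 and Myf5 among them), 5.81 to 3694 CPM at E12.5 and 21.8 to 1049 CPM at E15.5. The 14 skin epithelium markers gave 12.2 to 56.5 CPM (Krt14 and Krt1 at 0), 36.6 to 444 CPM (Krt1 and Krt8 at 0) and 916 to 2045 CPM (none at 0). The 14 connective tissue markers gave 997 to 1406 CPM (Dpt at 0), 3748 to 4795.5 and 9689 to 15698 CPM. Those of blood and mast cells gave 7.49 to 17.6 CPM (6 of 11 at 0, Ptprc among them), 23.1 to 48.6 CPM (4 at 0, Ptprc again) and 18.0 to 1990.4 CPM, and those of red cells 0 to 2446.5, 0 to 32.1 and 0 to 144 CPM. The stage differences below are from all kept cells. As an alternative, some are also given with the skin, muscle and endothelium clusters left out, and the part of the other cell types was not tested.

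The promoters of the members most at issue are shown because many mitotic genes carry a shared pair of elements. The CHR (cell cycle homology region) was searched as TTTGAA or TTCGAA and the CCAAT box as CCAAT, each on both strands, in RefSeq windows of the GRCm38.p6 assembly that run from 250 bases before the transcription start to 50 after it. Matches are in capitals, and a minus strand match reads as the reverse complement. The sequences are those of the 5 members called higher or lower between stages and of Cdc20, which was added after its values were seen. Cdc20 was lower in every E15.5 pool than in any pool of either earlier stage, as were Tpx2, Kif11, Kif20b and Top2a. Their windows are Ube2c (chr2:164769679-164769978, plus strand), Nusap1 (chr2:119618048-119618347, plus strand), Plk1 (chr7:122159185-122159484, plus strand), Bub1 (chr2:127831810-127832109, minus strand), Kif20b (chr19:34922108-34922407, plus strand) and Cdc20 (chr4:118437294-118437593, minus strand).
Ube2c: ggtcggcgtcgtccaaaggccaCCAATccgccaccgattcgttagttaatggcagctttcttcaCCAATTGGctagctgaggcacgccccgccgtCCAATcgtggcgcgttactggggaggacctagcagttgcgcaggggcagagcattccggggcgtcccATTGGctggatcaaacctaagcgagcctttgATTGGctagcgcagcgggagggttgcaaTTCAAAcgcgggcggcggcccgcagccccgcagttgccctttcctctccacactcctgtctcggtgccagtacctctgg
Nusap1: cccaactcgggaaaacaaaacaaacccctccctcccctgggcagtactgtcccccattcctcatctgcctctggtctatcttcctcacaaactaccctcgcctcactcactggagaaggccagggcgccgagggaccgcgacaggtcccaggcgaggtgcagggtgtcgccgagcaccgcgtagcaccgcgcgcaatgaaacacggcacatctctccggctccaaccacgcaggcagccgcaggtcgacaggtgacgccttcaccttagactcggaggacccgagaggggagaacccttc
Plk1: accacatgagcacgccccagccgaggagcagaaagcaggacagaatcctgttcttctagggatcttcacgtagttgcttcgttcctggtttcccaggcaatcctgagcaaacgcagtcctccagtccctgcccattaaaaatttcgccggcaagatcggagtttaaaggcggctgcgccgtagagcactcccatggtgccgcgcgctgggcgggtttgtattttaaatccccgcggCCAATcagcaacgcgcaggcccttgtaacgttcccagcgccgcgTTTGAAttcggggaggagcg
Bub1: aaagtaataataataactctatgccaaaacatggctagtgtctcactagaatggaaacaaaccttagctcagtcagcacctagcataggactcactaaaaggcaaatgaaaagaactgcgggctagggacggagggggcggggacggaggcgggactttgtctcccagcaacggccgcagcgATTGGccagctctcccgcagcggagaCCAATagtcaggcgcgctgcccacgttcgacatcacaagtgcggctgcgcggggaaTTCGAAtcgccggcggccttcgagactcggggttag
Kif20b: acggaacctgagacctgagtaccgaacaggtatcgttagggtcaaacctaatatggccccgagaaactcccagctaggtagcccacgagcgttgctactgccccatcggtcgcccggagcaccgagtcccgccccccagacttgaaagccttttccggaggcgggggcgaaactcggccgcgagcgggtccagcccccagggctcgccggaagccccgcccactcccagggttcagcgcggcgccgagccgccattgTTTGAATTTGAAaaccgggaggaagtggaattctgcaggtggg
Cdc20: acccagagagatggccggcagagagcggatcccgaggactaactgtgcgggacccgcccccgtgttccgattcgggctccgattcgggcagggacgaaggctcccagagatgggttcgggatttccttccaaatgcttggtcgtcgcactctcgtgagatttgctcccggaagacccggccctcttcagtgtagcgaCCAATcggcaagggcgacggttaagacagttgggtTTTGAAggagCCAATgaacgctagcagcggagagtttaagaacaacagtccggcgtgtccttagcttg
The Ube2c window held 6 CCAAT matches and a CHR match on the minus strand that began 29 bases before the start. The Plk1 window held CCAAT 14 bases before the start and TTTGAA 31 bases after it, and the Cdc20 window held TTTGAA 18 bases before the start between a pair of CCAAT matches. Bub1 held the TTCGAA form, and Kif20b held TTTGAA 2 times in a row with no CCAAT in the window. Nusap1 held neither motif.

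Of the 30 members, 27 had a window in the table, and Aurkb, Ccna2 and Tpx2 had none. A gene was counted where any of its windows held a match. A CHR match was found for 21 of the 27 members (77.8%), against 21.7% of all 27025 genes with windows of the same length. A CCAAT match was found in 22 of 27 (81.5%), against 41.1% of all windows, and both motifs together in 19 of 27 (70.4%), against 8.61%. The matches lay close to the start: 20 of 27 members (74.1%) had a CHR match between 50 bases before and 50 after it, against 6.12% of all these genes. Birc5, Mad2l1 and Nusap1 had neither motif in the window. Among 55 other genes of mitosis in the table, 31 of the 43 with a window (72.1%) held a CHR match. Of the DNA replication and G1/S genes, 5 of the 26 with a window (19.2%) did. A match is a description of the letters and not a measured site of binding.

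Summed over all 30 members, mitotic transcripts made up 6956.5 CPM of the counts at E10.5 (exact Poisson 95% interval 6928 to 6985, counting error only), 7775.8 CPM at E12.5 (7750 to 7801) and 5305.6 CPM at E15.5 (5285 to 5327). By pool the sum was 6526, 7568 and 6764 CPM at E10.5. The 4 pools of E12.5 gave 6696.5, 9966, 6476 and 7741 CPM. The 5 pools of E15.5 gave 4666, 4917, 4910.0, 5235 and 6578 CPM. Pool 5 stood highest of all, the pools of E10.5 and E12.5 overlapped, and at E15.5 pool 12 alone reached into the range of the earlier stages. The SD over pools was 546 CPM (3 pools), 1596 CPM (4 pools) and 763 CPM (5 pools). The log2 ratio of the sums was 0.16 at E12.5 against E10.5, which is within the spread of the pools, and -0.55 at E15.5 against E12.5.

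A member is called higher or lower in a stage where the log2 ratio of CPM, with 5 added to each CPM, reached 1 in size and no pool of that stage overlapped a pool of the other. At E12.5 against E10.5, 2 of the 30 members were called higher, Ube2c and Nusap1, where 7.76% of all 13125 genes compared were. None was called lower, where 2.83% of all genes were. Without the fold limit, 3 members lay higher in every pool (12.8% of all genes) and 1, Kif20b, lower in every pool (7.05%). At E15.5 against E12.5, 0 members were called higher (2.99% of all genes) and 0 lower (1.63%), but 8 members lay lower in every E15.5 pool (4.32% of all genes) and 0 lay higher in every pool (4.73%). Those 8 were Cdc20, Ube2c, Tpx2, Kif11, Kif20b, Ckap2l, Top2a and Mki67, and under median of ratios scaling 4 members did so. Over the whole span from E10.5 to E15.5, 3 members, Plk1, Bub1 and Kif20b, were called lower (5.01% of all genes) and 1, Nusap1, higher (11.2%). In that comparison 11 members lay lower in every E15.5 pool (9.97% of all genes) and 1 higher (14.8%).

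Counts past the fold limit were thus near the background, while the shift of the members at E15.5 was small per gene and mostly in 1 direction. The median log2 ratio of the members was 0.08 at E12.5 against E10.5, beside 0.17 for all genes compared, with 20 members above 0 and 10 below. Its sign was not stable, since it was -0.04 under median of ratios scaling, -0.09 with cells weighted equally and -0.09 without pool 5. At E15.5 against E12.5 it was -0.42, beside -0.04 for all genes, with 28 members below 0 and 2 above. Over the whole span it was -0.41, beside 0.15, with 22 below and 8 above. The 3 comparisons share their stages, so the values are not independent of each other. Summed counts cannot tell fewer dividing cells from less mitotic RNA per cell.

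**Figure D1:**
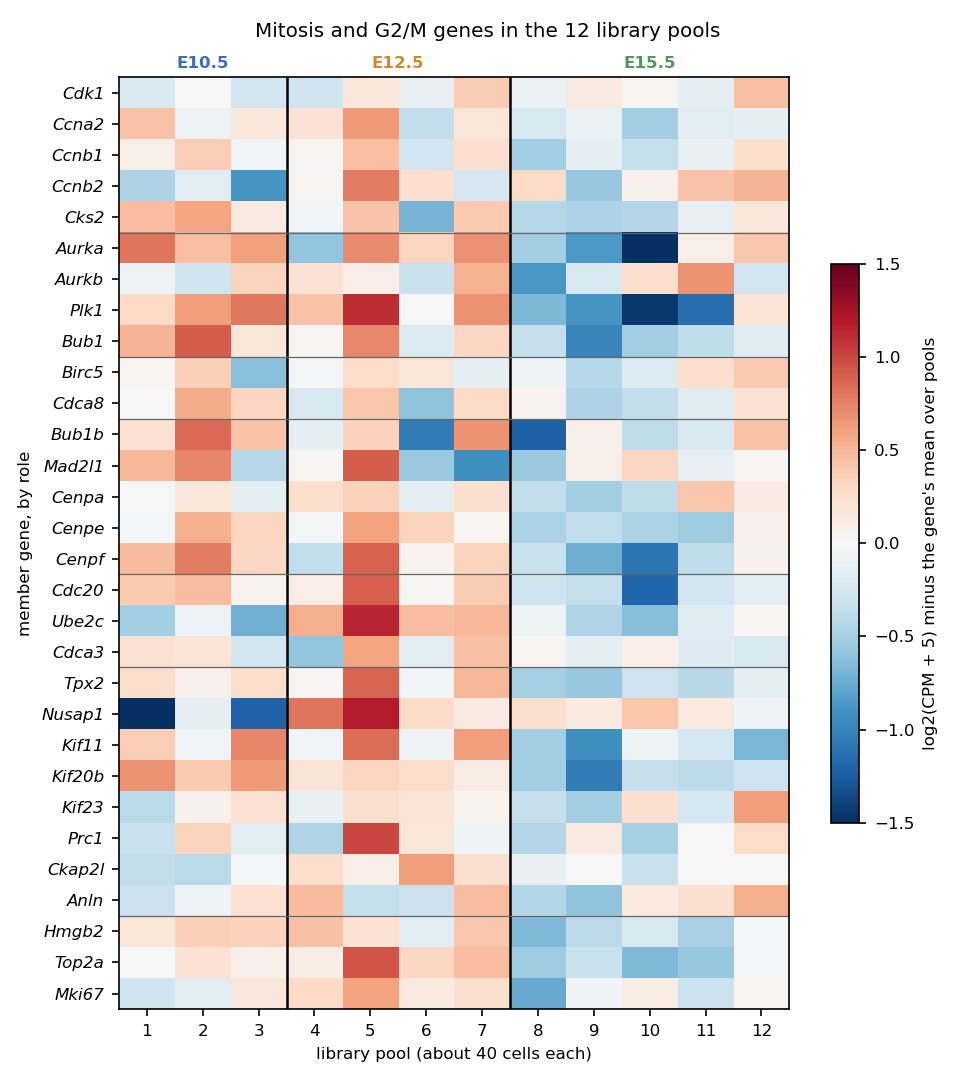
Each row is a member and each column a library pool, grouped by stage; colour gives log2 of CPM + 5 minus the mean of that gene over the 12 pools, and horizontal lines separate the roles. Most members are blue in pools 8 to 11 and near their mean or red in pool 5 and in pool 12, while Nusap1 is lowest in pools 1 and 3.

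Among the cyclins and their kinase, no member was called in any comparison. Cks2, a small subunit that binds Cdk1, had the most counts of this role, with 326, 356.5 and 258 CPM in the E10.5 pools. Its E12.5 pools gave 228, 317, 143 and 308.5 CPM, and its E15.5 pools 173.5, 169, 172, 215 and 263 CPM. The ranges overlapped at every step, and the log2 ratio over the whole span was -0.65. Cdk1, the kinase itself, had the highest log2 ratio of the members at E15.5 against E12.5, 0.02, with stage values of 123, 146 and 148 CPM. By pool it had 117, 137 and 113 CPM at E10.5, then 111, 155, 126 and 180 CPM at E12.5, then 128, 151, 140, 124 and 189 CPM at E15.5. All 3 stages covered much the same range. Ccna2, the cyclin of S phase and G2, had 235, 242 and 175 CPM and lay lower in each E15.5 pool than in any E10.5 pool. The mitotic cyclins Ccnb1 (219, 220 and 177.5 CPM) and Ccnb2 (85.5, 138.5 and 139 CPM) overlapped between stages, with log2 ratios over the span of -0.30 and 0.67.

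The mitotic kinases held 2 of the 3 members called lower over the whole span. Their 4 genes together gave 356 CPM at E10.5 (334 to 371 over pools), 341 at E12.5 (242.5 to 442) and 184 at E15.5 (131 to 264). Plk1, the Polo kinase of mitotic entry and spindle assembly, had 121, 153 and 172 CPM in the pools of E10.5 and 133, 215, 97.9 and 158 CPM in those of E12.5. At E15.5 it had 59.4, 50.4, 32.6, 41.6 and 113 CPM. Every E15.5 pool lay below every E10.5 pool, and pool 12 was the only one to reach above the lowest E12.5 pool. Plk1 was called lower over the whole span, with a log2 ratio of -1.16 (147 to 63.0 CPM, 2.33-fold lower). Against E12.5 its ratio was -1.23, but the overlap of pool 12 with pool 6 kept it from being called. A single cell held 24.6% of all Plk1 counts at E15.5, against 6.37% at E10.5 and 6.48% at E12.5.

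Bub1, a checkpoint kinase at the kinetochore, was likewise called lower over the whole span, with a log2 ratio of -1.02. Its pools had 80.1, 107 and 62.7 CPM at E10.5, 55.4, 93.5, 46.7 and 68.9 CPM at E12.5, and 41.9, 25.2, 36.5, 40.8 and 47.7 CPM at E15.5. The E12.5 pools lay between the others and overlapped both. The call was lost without pool 2 (log2 ratio -0.81), without pool 9 (-0.92), with 20 added to CPM (-0.82) and with cells weighted equally (-0.98). Aurka, the Aurora kinase of the spindle poles, gave 79.9, 66.5 and 39.0 CPM, with every E15.5 pool below every E10.5 pool and a log2 ratio of -0.95. Aurkb, the Aurora kinase of the chromosomal passenger complex, gave 44.5, 52.9 and 42.8 CPM and overlapped throughout, with a log2 ratio of -0.05.

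The chromosomal passengers, which sit at centromeres and then at the spindle midzone, held no called member. Birc5 (survivin) had 264, 332 and 165 CPM in the pools of E10.5 and 254.5, 315, 293 and 235 CPM in those of E12.5. Its E15.5 pools gave 247, 191, 223, 308 and 341 CPM. The stage values were 260, 270 and 266 CPM, and the pools of all stages overlapped. Cdca8 (borealin) gave 234, 197 and 176.5 CPM with overlapping pools.

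In the checkpoint and kinetochore group, Cenpf, a large kinetochore protein that accumulates in G2, had the most counts. Its pools gave 610, 755 and 546 CPM at E10.5, 337, 809.5, 456 and 553.5 CPM at E12.5, and 347, 262, 203, 335 and 458 CPM at E15.5. All E15.5 pools lay below all E10.5 pools, with a log2 ratio of -0.94 that stayed short of the limit. Mad2l1, the checkpoint protein that holds back anaphase, had the lowest ratio of all members at E12.5 against E10.5, -0.38. It had 73.9, 87.5 and 36.5 CPM at E10.5, 51.2, 99.2, 32.9 and 24.5 CPM at E12.5, and 32.9, 54.1, 64.1, 46.2 and 51.4 CPM at E15.5. Its pools overlapped at each step. The checkpoint kinase Bub1b (129, 101 and 77.8 CPM), the kinetochore motor Cenpe (371.5, 358 and 243 CPM) and the centromeric histone Cenpa (154, 176 and 141 CPM) overlapped as well, with log2 ratios over the span of -0.69, -0.60 and -0.12.

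The anaphase promoting complex group held a member called higher at E12.5. Ube2c, the E2 ubiquitin enzyme of that complex, had 120, 162.5 and 103 CPM in the E10.5 pools. In the E12.5 pools it had 255, 388, 240.5 and 246.5 CPM. In the E15.5 pools it had 164, 125, 109, 152 and 177 CPM. The E12.5 pools stood clear of both other stages, and E10.5 and E15.5 overlapped. Ube2c was called higher at E12.5 against E10.5, with a log2 ratio of 1.09 (2.17-fold), and its ratio was -0.90 at E15.5 against E12.5. The call was narrow: it was lost without pool 3 (0.98), without pool 5 (0.91), under median of ratios scaling (0.97), with cells weighted equally (0.89) and without the highest cell of each pool (0.99). Exons of Ube2c overlap those of Tnnc2, a troponin gene on the opposite strand listed at 0, 52.8 and 3.52 CPM; 1 muscle-like cell held 2361 of its E12.5 counts. The counting is not stated to use strand, so reads of the pair cannot be told apart. Cdc20, the activator of the complex, had 111, 117 and 87.0 CPM at E10.5, 89.9, 160.5, 84.8 and 111 CPM at E12.5, and 67.3, 64.0, 33.85, 67.7 and 73.9 CPM at E15.5. Every E15.5 pool lay below every pool of both earlier stages, with log2 ratios of -0.80 against E12.5 and -0.72 against E10.5. Cdca3, a trigger of mitotic entry, gave 108, 114 and 94.6 CPM with overlapping pools.

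The genes of the spindle and of cytokinesis went in different directions. Nusap1, which bundles spindle microtubules, had 28.1, 108 and 48.8 CPM in the E10.5 pools, 213.5, 278, 148 and 131 CPM in the E12.5 pools, and 143, 134, 161.5, 134 and 113.5 CPM in the E15.5 pools. All pools of the later stages lay above all E10.5 pools. Its log2 ratio of 1.55 at E12.5 against E10.5 (3.09-fold) was the largest of the 30 members, and it was called higher there. Over the whole span its ratio was 1.08 and it was called higher, but this call was lost without pool 1 (0.71) or pool 3 (0.97), with 20 added to CPM (0.93), with cells weighted equally (0.85), without the skin epithelium-like, muscle-like and endothelium-like clusters (0.97) and without the highest cell of each pool (0.99). Nusap1 shares 172 exon bases with Oip5 on the opposite strand, which had 6.52, 7.87 and 12.6 CPM. Kif20b, a kinesin of the late spindle and midbody, moved the other way, with 219, 179 and 214 CPM in the E10.5 pools, 155, 171, 165 and 147 CPM in the E12.5 pools, and 93.8, 63.0, 106, 103 and 108 CPM in the E15.5 pools. Its 3 stages did not overlap at any step. It was called lower over the whole span (log2 ratio -1.05), a call lost without pool 1 (-0.99) or pool 9 (-0.96) and with 20 added to CPM (-0.95).

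Tpx2, which activates Aurka on the spindle, had 324, 283 and 325 CPM at E10.5, 273, 499, 262 and 385 CPM at E12.5, and 190, 181, 217, 201 and 244 CPM at E15.5. Every E15.5 pool lay below every earlier pool, with log2 ratios of -0.78 against E12.5 and -0.57 against E10.5. Kif11, the motor that pushes spindle poles apart, had 111, 117 and 59.8 CPM, a log2 ratio of -0.91 against E12.5, and every E15.5 pool likewise below every earlier pool, the highest E15.5 pool at 81.0 and the lowest earlier pool at 82.4 CPM. Ckap2l, a spindle protein of neural progenitors and other dividing cells, gave 72.5, 110 and 84.1 CPM, and its E12.5 pools lay above all pools of both other stages. The central spindle proteins Kif23 (115, 126 and 122 CPM) and Prc1 (166, 200 and 160 CPM) and the cleavage furrow protein Anln (45.5, 54.3 and 49.4 CPM) overlapped between all stages.

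Of the genes of chromosome structure and chromatin, Top2a, the topoisomerase that untangles sister chromatids, had 992, 1159.6 and 1051 CPM in the E10.5 pools. It had 1075, 1921.5, 1236 and 1380 CPM in the E12.5 pools and 684, 789, 629.99, 671 and 979 CPM in the E15.5 pools. Every E15.5 pool lay below every earlier pool, the nearest being pool 12 at E15.5 and pool 1 at E10.5, and the log2 ratio was -0.88 against E12.5 and -0.48 against E10.5. Mki67, the coat protein of mitotic chromosomes used as the Ki-67 proliferation marker, had 662, 902 and 624.6 CPM, with every E15.5 pool below every E12.5 pool and a log2 ratio of -0.53 there. Against E10.5 its ratio was -0.08. Hmgb2, a chromatin protein of dividing cells, had 603.4, 598.1 and 389 CPM, with every E15.5 pool below every E10.5 pool.

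**Figure D2:**
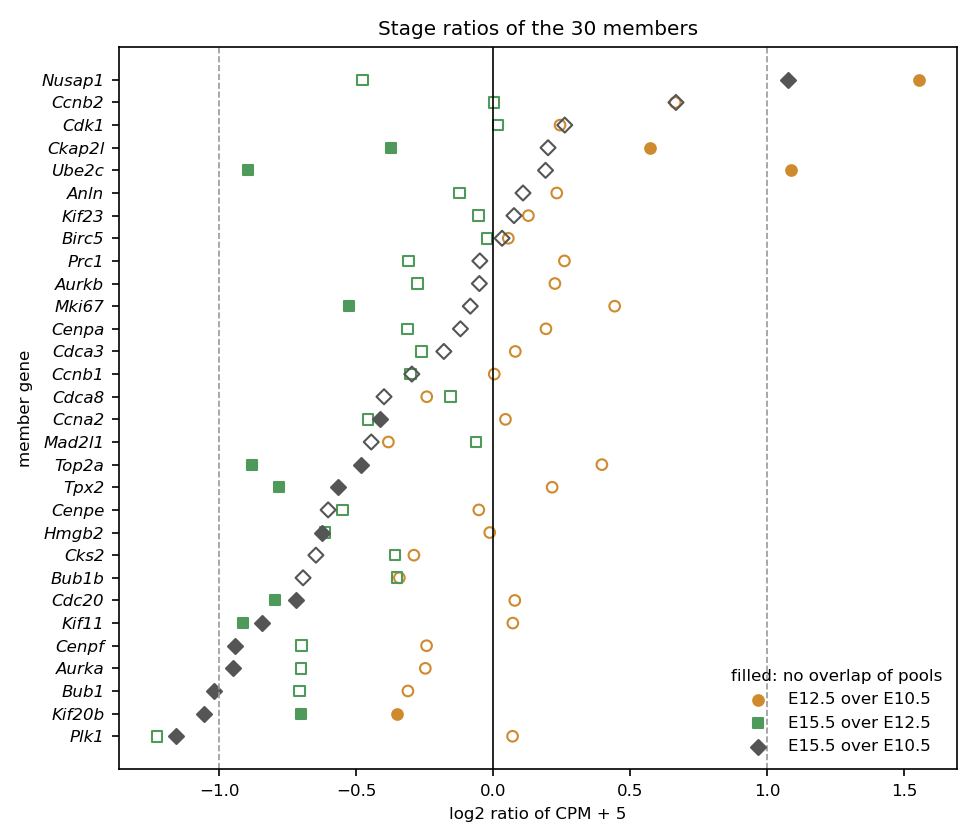
Each row is a member, ordered by its log2 ratio over the whole span, and each symbol is the log2 ratio of CPM + 5 for 1 pair of stages; filled symbols have no overlap between the pools of the stages, and dashed lines mark the limit of 1 in size. Nearly all squares (E15.5 over E12.5) lie left of 0, and the filled circles right of the limit are Nusap1 and Ube2c.

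The share of cells in which a member was read stepped down with stage for some members and stayed level for others. Plk1 was read in 69.6%, 49.7% and 23.2% of thinned cells. Cdc20 was read in 72.2%, 47.0% and 30.3%, Aurka in 47.8%, 34.2% and 20.0%, and Bub1 in 54.8%, 35.6% and 23.2%. In summed counts the pools of E10.5 and E12.5 overlapped for each of these 4 members. Other members were read in much the same share at each stage: Cdk1 in 64.3%, 59.7% and 60.5%, Aurkb in 30.4%, 31.5% and 27.6%, Anln in 29.6%, 25.5% and 28.1%, and Mad2l1 in 37.4%, 34.2% and 34.1%. Nusap1 was read in 37.4%, 56.4% and 43.2% of cells. Ube2c was read in 67.0% of cells at E10.5 and 66.4% at E12.5, so that its higher counts at E12.5 came with no larger share of cells. Top2a was read in 100%, 91.9% and 80.5% of cells.

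Single cells at E10.5 were alike in their mitotic transcripts, and cells at the later stages were not. The summed members of a thinned cell had a median of 6640 CPM at E10.5 and ran from 1440 to 13600. At E12.5 the median was 4960 CPM with a range of 120 to 24380, and at E15.5 it was 2160 CPM with a range of 80 to 30520. The coefficient of variation over cells was 0.40, 0.93 and 1.18, and within single pools it ran from 0.34 to 0.44, from 0.78 to 1.11 and from 1.02 to 1.495. The pools of E10.5 therefore did not overlap those of the later stages in this spread. No cell of 115 at E10.5 had a sum under 1000 CPM, which allows a share of up to 2.61% (3 cells of the total; the exact 95% interval reaches 3.16%), against 33 of 149 (22.1%) and 68 of 185 (36.8%) at the later stages. Cells between 4000 and 10000 CPM were 71.3%, 28.9% and 21.1%, while those of at least 10000 CPM were 14.8% (8.85 to 22.6%), 27.5% (20.5 to 35.4%) and 18.4% (13.1 to 24.7%). The mean sum per cell was 6884 CPM at E10.5 and 6996 at E12.5, so the similar means of these stages covered a narrow distribution at E10.5 and a broad one at E12.5.

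**Figure D3:**
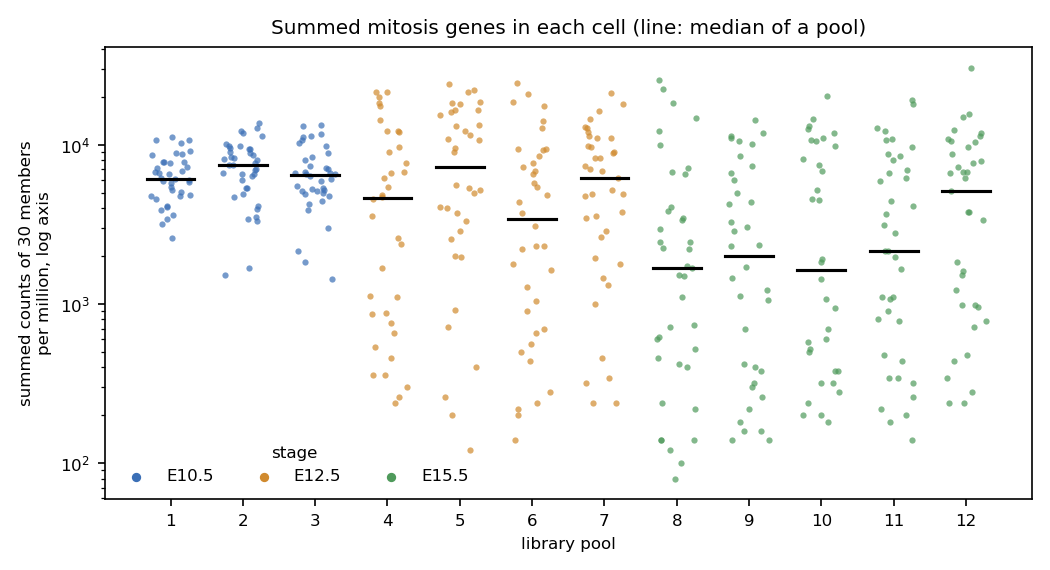
Each point is a cell thinned to 50000 counts, placed by library pool, with the summed CPM of the 30 members on a log axis; black lines are pool medians. Cells of E10.5 lie between 1440 and 13600 CPM, while each pool of the later stages holds cells below 1000 and above 10000.

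The number of different members read per cell gave a similar order. Its median was 21 of 30 at E10.5 (range 9 to 30), 17 at E12.5 (4 to 30) and 12 at E15.5 (2 to 29). With the limit set for a mitosis-high cell, at least 10 members read, the share was 114 of 115 cells at E10.5 (99.1%, exact Clopper-Pearson 95% interval 95.2 to 100%), 112 of 149 at E12.5 (75.2%, 67.4 to 81.9%) and 115 of 185 at E15.5 (62.2%, 54.8 to 69.2%). This is a range of a score and not a phase of the cycle, and 4, 24 and 46 cells lay at 8 to 11 members. By pool the share was 97.4% to 100%, 63.2% to 88.9% and 51.3% to 75.7%, so the later stages overlapped. Since nearly all E10.5 cells passed, a limit of 20 members was added after seeing the data, and it gave 55.7%, 41.6% and 29.7%. With at least 3 counts required of a read member, the shares at 10 members were 88.7%, 56.4% and 43.8%. By the summed counts the order differed: cells of at least 10000 CPM were most frequent at E12.5.

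Measures of depth stood beside these values. Even after thinning, the number of members read in a cell was correlated with its total counts before thinning, with Pearson r of 0.66, 0.38 and 0.34 over the same cells, and with its number of detected genes after thinning, with r of 0.72, 0.46 and 0.43. Wells with counts of both Xist and Y-linked genes, at least 3 of each, were 20.0%, 18.1% and 28.1%. The part of total counts, detected genes and such wells in the spread between cells was not tested. Summed over a list, the coefficient of variation was 0.32, 0.77 and 0.90 for 55 other mitosis genes and 0.28, 0.59 and 0.74 for 36 replication genes. It was 0.90, 0.74 and 0.71 for 16 genes that brake the cycle. Among 3804 genes with a mean of at least 2 thinned counts, the median coefficient of a single gene was 1.70, 1.77 and 1.88, and it was higher at E12.5 than at E10.5 for 59.99% of them and at E15.5 than at E12.5 for 63.8%. Among the 29 members that passed that filter it was 1.48, 1.78 and 2.09, higher in 23 and in 27 of them.

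Within E12.5 and E15.5 the counts of the members were correlated across cells, and within E10.5 much less so. This does not mean that members were read in separate cells at E10.5, since Ccnb1 was read in 82.5%, 71.6% and 72.1% of cells with Plk1. The summed members also varied least between cells at E10.5, and the part of this in the correlations was not tested. The median Pearson correlation over the 435 pairs of members, on log2 of thinned counts plus 1, was 0.11 across 115 cells at E10.5, 0.44 across 149 cells at E12.5 and 0.44 across 185 cells at E15.5. Computed within pools it was 0.10, 0.43 and 0.44. Pairs above 0.3 were 18, 378 and 382 of 435, and pairs below 0 were 84, 0 and 0. These are descriptions, since cells of a stage share a litter and library pools. The closest pair was Top2a and Mki67 at E12.5 (0.77) and at E15.5 (0.71), and Cenpe and Top2a at E10.5 (0.39). As an example in shares of cells, Nusap1 was read in 78.0% of E12.5 cells with Ccnb1 and 29.9% of those without, and at E15.5 in 68.8% and 23.8%. At E10.5 these shares were 42.4% and 23.3%. Not every pair showed this difference between stages. Aurka was read in 60.0%, 52.7% and 44.2% of cells with Plk1, and in 20.0%, 16.0% and 12.7% of those without.

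**Figure D4:**
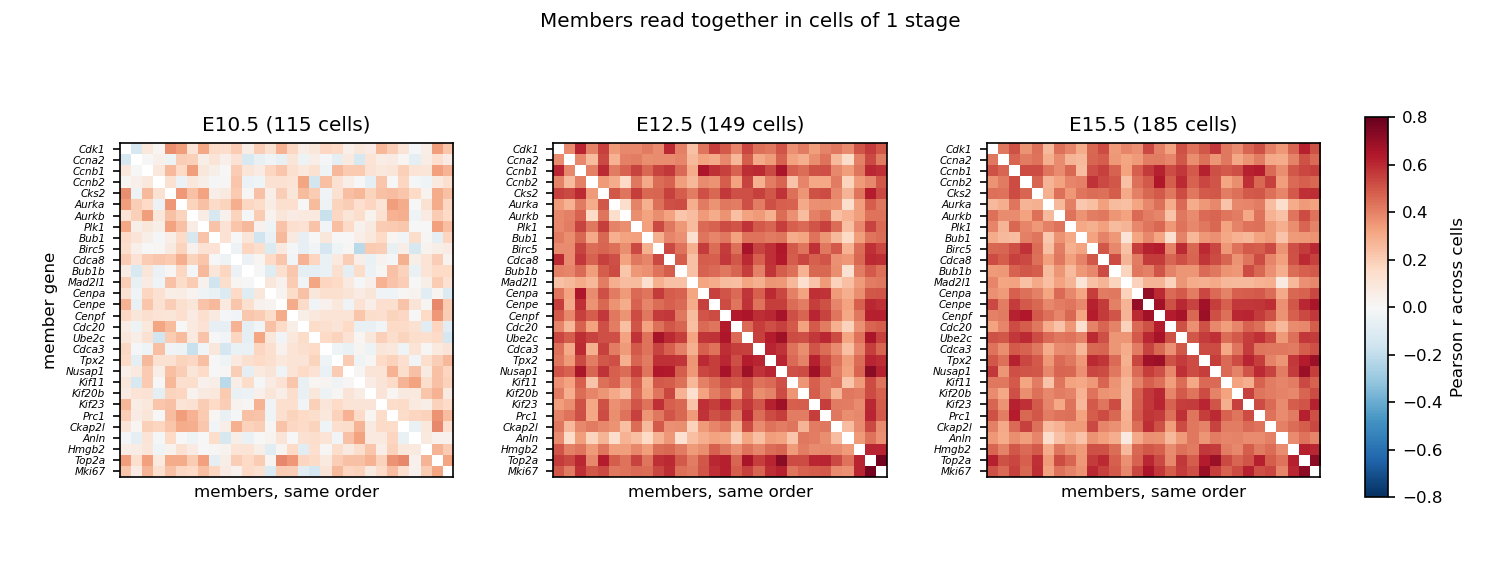
Each panel is a stage, and each square the Pearson r of a pair of members across the cells of that stage, with the members in the same order of roles on both axes. The E10.5 panel is pale with 84 of 435 pairs below 0, and the panels of E12.5 and E15.5 are red throughout.

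The genes whose values followed the members most closely across cells, among 7530 genes read in at least 10% of cells of each stage, were ranked by the mean of their 3 within-stage correlations with the summed log values of the members. The first was Kpna2, a nuclear import receptor, with r of 0.54, 0.76 and 0.70 (mean 0.67). The next 8 were Arl6ip1, Smc4, Tacc3, Incenp, Cdca2, Spc25, Racgap1 and Hmmr, with means of 0.59 down to 0.50. These 9 were on the list of other mitosis genes given below.

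Cell classes were formed by clustering the cells without 151 cell cycle genes, so that the clusters did not rest on the members. At E15.5, 130 kept cells fell into a pair of connective tissue-like clusters, led by Col1a1, Col1a2 and Col3a1, and smaller clusters were skin epithelium-like (30 cells), muscle-like (11 cells) and endothelium-like (10 cells). Of the thinned connective tissue-like cells 71 of 122 had at least 10 members read (58.2%, 48.9 to 67.1%), and 25 had at least 20 (20.5%, 13.7 to 28.7%). Of the skin epithelium-like cells 21 of 28 had at least 10 (75.0%, 55.1 to 89.3%) and 15 at least 20 (53.6%, 33.9 to 72.5%). The intervals overlapped at the limit of 10 and did not at the limit of 20, which was added after seeing the data. They cover counting error only. The separation at 20 depended on the clustering. At Leiden resolution 2 the intervals overlapped slightly, with 16.4 to 34.8% for connective tissue-like and 33.9 to 72.5% for skin epithelium-like cells. The median cell had 274841.5 counts in the skin epithelium-like cluster and 168020.5 and 181344 in the connective tissue-like clusters, over all stages and before thinning, and beyond the thinning the part of this gap was not tested. The 2 connective tissue-like clusters had 45 of 69 (65.2%, 52.8 to 76.3%) and 26 of 53 cells (49.1%, 35.1 to 63.2%) at 10 members, with overlapping intervals. At 20 members they had 20.3% and 20.75%. At a finer clustering (Leiden resolution 2) a separate cluster of E15.5, led by Col2a1 and left unnamed, held 9 of the cartilage markers among its top 100 genes. Of its 27 thinned cells 40.7% (22.4 to 61.2%) had at least 10 members and 7.41% (0.91 to 24.3%) at least 20. The 93 cells then left as connective tissue-like gave 63.4% (52.8 to 73.2%) and 24.7% (16.4 to 34.8%), so the intervals overlapped at both limits. Before thinning, the median cell of the Col2a1-led cluster had 115276.5 counts over all stages. The connective tissue-like clusters of that resolution had 125213.5 to 303701, and the part of this gap was not tested. Muscle-like cells gave 7 of 11 (63.6%) and endothelium-like cells 6 of 9 (66.7%), with intervals too wide to place them.

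In summed counts the skin epithelium-like cells of E15.5 had 6822 CPM of the 30 members and the connective tissue-like cells 4339 CPM. The difference was uneven among members. Ube2c had 336 CPM in skin epithelium-like and 83.7 in connective tissue-like cells, and Cdc20 had 116 and 34.7 CPM. Top2a had 789 and 684 CPM, Mki67 630.6 and 588.4 CPM, and Plk1 46.4 and 44.2 CPM. Single cells weighed on the skin epithelium-like values, since 1 cell held 22.5% of their Ube2c counts, 32.4% of their Cdc20 counts and 35.7% of their Plk1 counts. With the skin epithelium-like, muscle-like and endothelium-like clusters left out of all stages, 3 members were called lower at E15.5 against E12.5, Ube2c and Cdc20 with log2 ratios of -1.65 and -1.45 and Bub1, where 1.945% of all genes were. Plk1 was then no longer called lower over the whole span (-1.03, with overlapping pools).

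At E12.5 most cells fell into a pair of clusters that met no naming rule. Cluster 1, led by Sox11, Zfhx4 and Hoxd13, had 67 of 80 thinned cells with at least 10 members (83.8%, 73.8 to 91.0%). Cluster 4, led by Zfhx3 and Sox9, had 24 of 40 (60.0%, 43.3 to 75.1%). Their intervals overlapped slightly, and the median cell had 18.5 members in cluster 1 and 13 in cluster 4. The median total count was 295747 in cluster 1 and 156229 in cluster 4, and its part in the shares was not tested beyond the thinning. With finer clusters, a cartilage-like cluster of 29 E12.5 cells had 62.1% at that limit. At E10.5, 110 of the 115 thinned cells were in 1 unnamed cluster, of which 109 had at least 10 members.

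**Figure D5:**
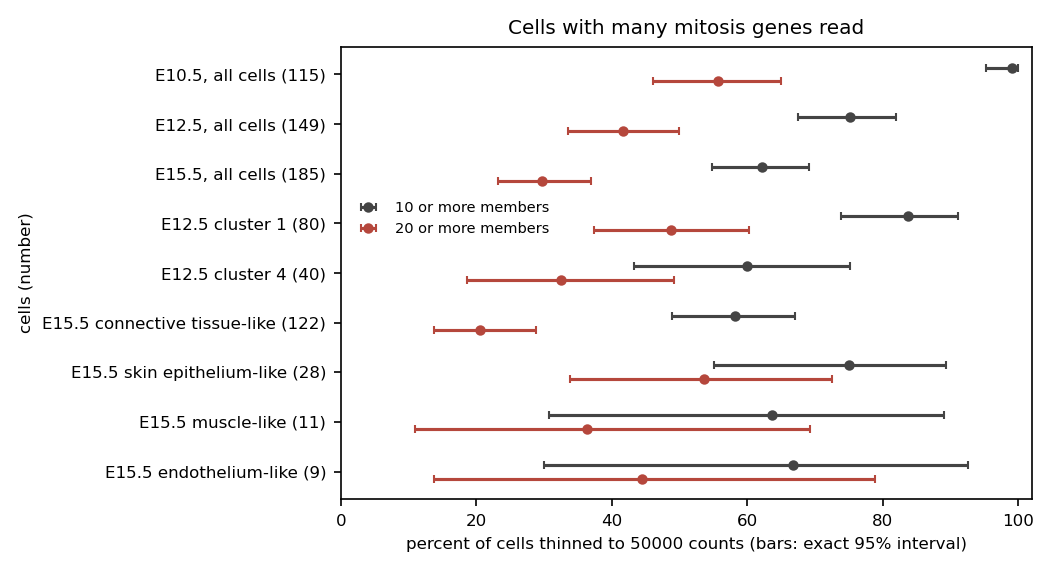
Points are the percent of thinned cells with at least 10 (grey) or at least 20 (red) of the 30 members read, with exact 95% intervals of counting error, by stage and by cluster; cell numbers are in brackets. Both shares step down from E10.5 to E15.5, and at 20 members the E15.5 skin epithelium-like cells (53.6%) stand above the connective tissue-like cells (20.5%).

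Genes of the same pathway outside the 30 were read from 4 lists. Of 55 other mitosis genes, 1 was called higher at E12.5 against E10.5 (Iqgap3, where 7.76% of all genes were) and 0 lower (2.83%). At E15.5 against E12.5, 5 were called lower (1.63% of all genes) and 0 higher (2.99%): Incenp, the scaffold of the passenger complex (255.5 to 119 CPM), the kinesin Kif2c (57.9 to 19.8 CPM), Cdca2 (143 to 56.3 CPM), Dlgap5 (119 to 55.7 CPM) and Sgol1, which guards centromeric cohesion (99.0 to 43.7 CPM). Over the whole span 4 were called lower (5.01% of all genes), Incenp, Kif2c, Melk and Ccnf, and 0 higher (11.2%). Their median log2 ratio was -0.35 at E15.5 against E12.5 and -0.39 over the span, close to those of the members.

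The DNA replication and G1/S genes stood lower over the whole span in more cases. Of 36, 16 were called lower from E10.5 to E15.5 (5.01% of all genes) and 0 higher (11.2%), and their median log2 ratio was -0.76 against -0.41 for the members. Nasp, a histone chaperone, went from 1407 to 965.5 to 266 CPM, Mcm7 of the replicative helicase from 549 to 363 to 142 CPM, and Uhrf1 from 425 to 207 to 123 CPM. Between E10.5 and E12.5, where the members had a median of 0.08, that of the replication genes was -0.38, with 3 called lower (2.83% of all genes), Rrm2, Uhrf1 and Ccne1. Of the brakes of the cycle, 13 of 16 were compared. Over the whole span 6 were called higher (11.2% of all genes), among them Cdkn1c (296, 1321.5 and 2067 CPM), Btg2 (10.2, 56.0 and 228 CPM) and Cdkn1a (8.51, 13.8 and 54.8 CPM), and 1, Gadd45a, lower (5.01%).

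Of 14 regulators of mitotic transcription, Mybl2, a subunit of the complex that activates late cell cycle genes through CHR elements, had 59.2, 62.0 and 20.7 CPM and was called lower at E15.5 against E12.5. Nfyc, a subunit of the factor that binds CCAAT boxes, had 89.6, 102 and 42.3 CPM and was called lower there as well, so that 2 of the 14 were, beside 1.63% of all genes. Foxm1, the forkhead factor of the G2 program, had 83.9, 86.6 and 54.3 CPM and was not called, with a log2 ratio of -0.63. Lin52 (3.62 to 15.3 CPM) was called higher and Tfdp1 (11.4 to 1.91 CPM) lower at E12.5 against E10.5, where 7.76% and 2.83% of all genes were.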

How the data were processed

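RNA of captured hind limb cells of 3 stages was made into Nextera XT libraries on the Fluidigm C1, per the labels' protocols. What the authors deposited is a table of raw counts per gene and cell, whole numbers without normalization. The submitters' processing notes name the aligner Bowtie2, the counter featureCounts and the mm10 genome build. Tool versions, annotation, strandedness and molecular identifiers: not given in the sources used here. Counts were therefore read as PCR-amplified reads, and intervals cover counting error only. Another 1120 samples were not analysed here. There were 22738 entries for 22092 symbols. For the 298 symbols listed more than once, identical entries were kept once and differing entries added up. All 12 pools share the same 40 cell barcodes by design.

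The filter of 1000 detected genes removed 1 cell of E10.5 and 2 of E12.5. CPM are summed counts of a stage or pool over its summed total. Log2 ratios, with 5 added to CPM, were taken for the 13125 genes that at least 10 cells held, and the calling was tested on simulated data. Each stage was 1 sample, so no test between stages was made. Intervals of 95% are exact Poisson for sums and Clopper-Pearson for shares. The members and all gene lists were chosen with earlier results of these data known. Values in every pool are given for the member with the most counts in each role, for members called in a comparison, and for the member with the largest ratio in each direction; Cdc20 was added after its values were seen. From each list the text names up to 4 genes in each direction with at least 20 CPM, and those that complete a count. Of the 10 genes most like the members across cells, 1 is not reported here. Clusters were made in scanpy 1.11.5 from 2000 variable genes, 15 components, 15 neighbours and Leiden resolution 1, without 151 cell cycle genes. A name needed 3 markers among the top 100 genes, 1 among the top 10, and no other list with more there, a rule set after seeing the data. No doublet caller was run, and doublets were left in. Gene positions are those of GENCODE vM21 on GRCm38, promoter windows those of RefSeq on GRCm38.p6. The alternatives tried were the amount added to CPM, the scaling, the filters on genes and cells, the weighting of cells, the clusters, pools and cells left out, the limits and depth behind the shares, and the motif.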

Additional observations from a re-analysis of the deposited data

Results flagged for a closer look

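Among 62 groups of 4 or 5 pool values of members and their sum, 3 held a pool that lay far from the others of its stage, and chance gives about 1 in 20 such groups. Cenpe had 321.3 CPM in pool 12 at E15.5, where the other 4 pools had 208.1 to 233.8 CPM. Cdc20 had 33.85 CPM in pool 10 at E15.5, where the others had 64.01 to 73.87 CPM. Ube2c had 387.8 CPM in pool 5 at E12.5, where the others had 240.5 to 255.3 CPM, and its call at E12.5 against E10.5 was lost without that pool (log2 ratio 0.91).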

How the results depend on the processing

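No paired analysis was possible because each stage was 1 sample and cell numbers carry no pairing. Of 252 recomputed values of the stage comparisons and shares, 205 were scored the same as in the main setting and 47 were not. Some of the 252 could not change, because leaving out a pool does not alter the shares of the other stages. Nor does it alter the ratios of the members between those other stages. The 205 are therefore not a measure of how stable the results are. No call and no summed ratio reversed, but the members' median at E12.5 against E10.5 did, from 0.08 to -0.04, -0.09 and -0.09 under median of ratios scaling, with cells weighted equally and without pool 5. Members called higher at E12.5 against E10.5 were 1 in place of 2 under median of ratios scaling, with cells weighted equally and without each gene's top cell per pool, and 1 to 2 as each pool was left out, while the share of all genes called higher ran from 3.49% to 10.2% over these alternatives. Members called lower at E15.5 against E12.5 were 3 with cells weighted equally, 3 without the skin epithelium-like, muscle-like and endothelium-like clusters, 1 without the top cells, and 0 to 2 as each pool was left out, in place of 0, beside 1.73%, 1.945% and 2.05% of all genes in the first 3 of these and 0.693% to 2.27% over all alternatives. Over the whole span, members called higher were 0 in place of 1 with 20 added to CPM, with cells weighted equally, without those clusters and without the top cells, and 0 to 1 as each pool was left out (6.03% to 13.7% of all genes). Members called lower there were 1 with 20 added, 5 with cells weighted equally, 5 without those clusters, 5 without the top cells, and 1 to 5 as each pool was left out, in place of 3, beside 2.84%, 5.04%, 5.76% and 6.35% of all genes in the first 4 of these. The cause was not tested. In stage order, the share of mitosis-high cells was 100%, 96.6% and 93.5% at 5 members and 86.1%, 56.4% and 42.7% at 15. It was 88.7%, 56.4% and 43.8% with 3 counts needed, 93.2%, 59.0% and 46.4% after thinning to 20000 counts, and 100%, 91.1% and 86.0% without thinning. Without Hmgb2, Cks2 and Mad2l1 it was 53.5% at E15.5. Alternatives chosen after seeing the data gave 55.7%, 41.6% and 29.7% at 20 members and 14.8%, 27.5% and 18.4% for a sum of at least 10000 CPM, the only measure with E10.5 lowest. As each pool was left out the share was 98.7% to 100%, 70.8% to 79.3% and 58.8% to 65.1%. The clusters of mast cell, blood and glia kinds named among the alternatives did not form, so only the 3 above were left out. The depth limits what a member listed as not read in a cell can show.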
